A study of Mus musculus with 192 samples.

Results

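Ifnb1 encodes interferon beta, a secreted type I interferon, and its transcript was followed here across every combination of ligands in the series. The gene was chosen by its symbol alone, which gave 1 gene of 23481 in the deposited count table, and it was among the 4720 genes with enough counts to be tested. Bone marrow of female C57BL/6J mice aged 6 to 8 weeks had been cultured with the growth factor GM-CSF to give dendritic cells, which were then stimulated for 6 hours with ligands of pattern recognition receptors, the sensors of microbial molecules in innate immune cells. The labels name the ligands PAM, LPS (lipopolysaccharide), HMW, Zymosan (labelled as depleted), SeV, 3',3'-cGAMP (a cyclic dinucleotide, written cGAMP below) and CpGB. There were 64 groups of 3 libraries: Ctrl, the 7 ligands alone, all 21 pairs and all 35 triplets, and no genotype differed between them. Doses were not used here. The labels do not say whether the 3 libraries of a group came from separate mice or cultures, so that every p-value measures only the spread between these libraries.

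Type I interferons are released by infected or stimulated cells and act through the receptor made of Ifnar1 and Ifnar2, which switches on antiviral genes in the same and in neighbouring cells. The Ifnb1 gene is transcribed when the kinase Tbk1 and its relatives activate the factor Irf3, or Irf7 where it is already made, together with NF-kB and ATF and Jun factors that bind side by side upstream of the gene. Cytosolic RNA sensors reach Tbk1 through the adaptor Mavs, cyclic dinucleotides through the adaptor STING (Tmem173), and some Toll-like receptors through the adaptor Ticam1. Transcription of Ifnb1 is usually brief, so that a single time describes only what is present at that time.

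In the mouse assembly GRCm38, of which mm10 is another name and which the submitters' processing notes name, RefSeq places Ifnb1 on the minus strand of chromosome 4 at 88522025 to 88522794, a transcribed stretch of 770 bases that the annotation gives as 1 exon. The control region just upstream is shown because the ligands differed in the level of this 1 transcript and because its letters hold matches to the motifs of interferon regulatory factors and NF-kB, the only motifs searched. The sequence is from RefSeq (GRCm38.p6), chr4:88522845-88523044, minus strand, and covers the bases from 250 to 51 before the annotated start. Capitals mark matches, on either strand, to AANNGAAA, a short form of the site of interferon regulatory factors, and to GGGANNTTC, a short form of the NF-kB site.
Ifnb1: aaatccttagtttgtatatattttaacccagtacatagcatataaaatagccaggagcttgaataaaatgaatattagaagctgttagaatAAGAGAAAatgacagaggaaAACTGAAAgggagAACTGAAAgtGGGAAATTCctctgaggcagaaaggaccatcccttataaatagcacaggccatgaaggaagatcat
The 3 matches to the first motif began 159, 139 and 126 bases before the start and the 1 match to the second 116 bases before it, none of them overlapping another. Of the 32851 promoter windows of 300 bases in the same table, 23.9% held the first motif, 3.94% the second and 1.06% both. As many matches of each as in Ifnb1 were found in 18 windows (0.0548%). A match describes letters and not a bound factor, since no binding was measured.

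The values are counts of unique molecular identifiers (UMIs), tags that mark each original cDNA molecule, and are also given as CPM, the count relative to the library's total on the usual per-million scale, with totals scaled by edgeR's TMM method. The libraries held between 46564 and 610234 UMIs with a median of 171616. The 3 Ctrl libraries were among the shallow ones, at 61823 to 89530 UMIs. Over all libraries 5686 UMIs were assigned to Ifnb1, and 10 libraries had none. The 7 dendritic cell markers (the labelled cell type) summed to 2880 to 4316 CPM in groups with SeV or cGAMP and to 2920 to 4065 CPM in the other groups. Of the 118224 UMIs of these markers, 59353 were of H2-Ab1 and 32770 of Cd74, so that the sum mostly follows these genes. In such bulk libraries fewer cells making Ifnb1 and less of its RNA per cell cannot be told apart.

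Without a ligand Ifnb1 was barely detected. Each Ctrl library held 1 Ifnb1 UMI, which corresponded to 13.9, 12.5 and 9.60 CPM. With SeV the libraries held 26, 34 and 52 UMIs, or 248, 261 and 244 CPM, a mean of 251 ± 8.63 CPM (SD, n = 3). With cGAMP they held 29, 36 and 18 UMIs, or 266, 210 and 110 CPM, a mean of 196 ± 78.8 CPM (SD, n = 3). All libraries of both ligands lay far above the Ctrl libraries, and the SeV and cGAMP libraries overlapped each other. Because Ctrl rests on 3 UMIs in all, the ratio of the summed counts is given with an exact 95% interval for counting error only: 21.4-fold (7.12 to 105) for SeV and 16.0-fold (5.29 to 79.2) for cGAMP. In the fit across all genes the level with SeV was higher than in Ctrl by 4.33 ± 0.97 (SE) on the log2 scale (edgeR quasi-likelihood test, adjusted p = 1.91e-10), where 10.5% of the tested genes were called higher. With cGAMP it rose by 3.93 ± 0.97 (edgeR adjusted p = 5.73e-08), where 11.7% of genes were called higher. A call against Ctrl required an adjusted p under 0.05 and a log2 fold change of at least 1.

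The other 5 ligands given alone did not pass this test. PAM libraries held 2, 3 and 6 UMIs (20.5 ± 11.1 CPM), CpGB libraries 4, 2 and 4 (22.5 ± 14.7 CPM) and Zymosan libraries 0, 5 and 3 (15.3 ± 16.0 CPM). LPS libraries held 0, 4 and 4 UMIs (13.4 ± 11.8 CPM), and HMW libraries 1, 0 and 3 (7.42 ± 7.01 CPM). Each of these groups overlapped Ctrl, and the ratios to Ctrl ran from 0.613 for HMW (counting interval 0.104 to 4.18) to 1.77 for PAM (0.468 to 9.88). Changes within these counting intervals were not detectable at this depth. With the same ligands, the share of tested genes called higher than Ctrl was 14.6% for LPS, 10.8% for CpGB, 8.01% for PAM, 4.43% for Zymosan and 0.953% for HMW.

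**Figure D1:**
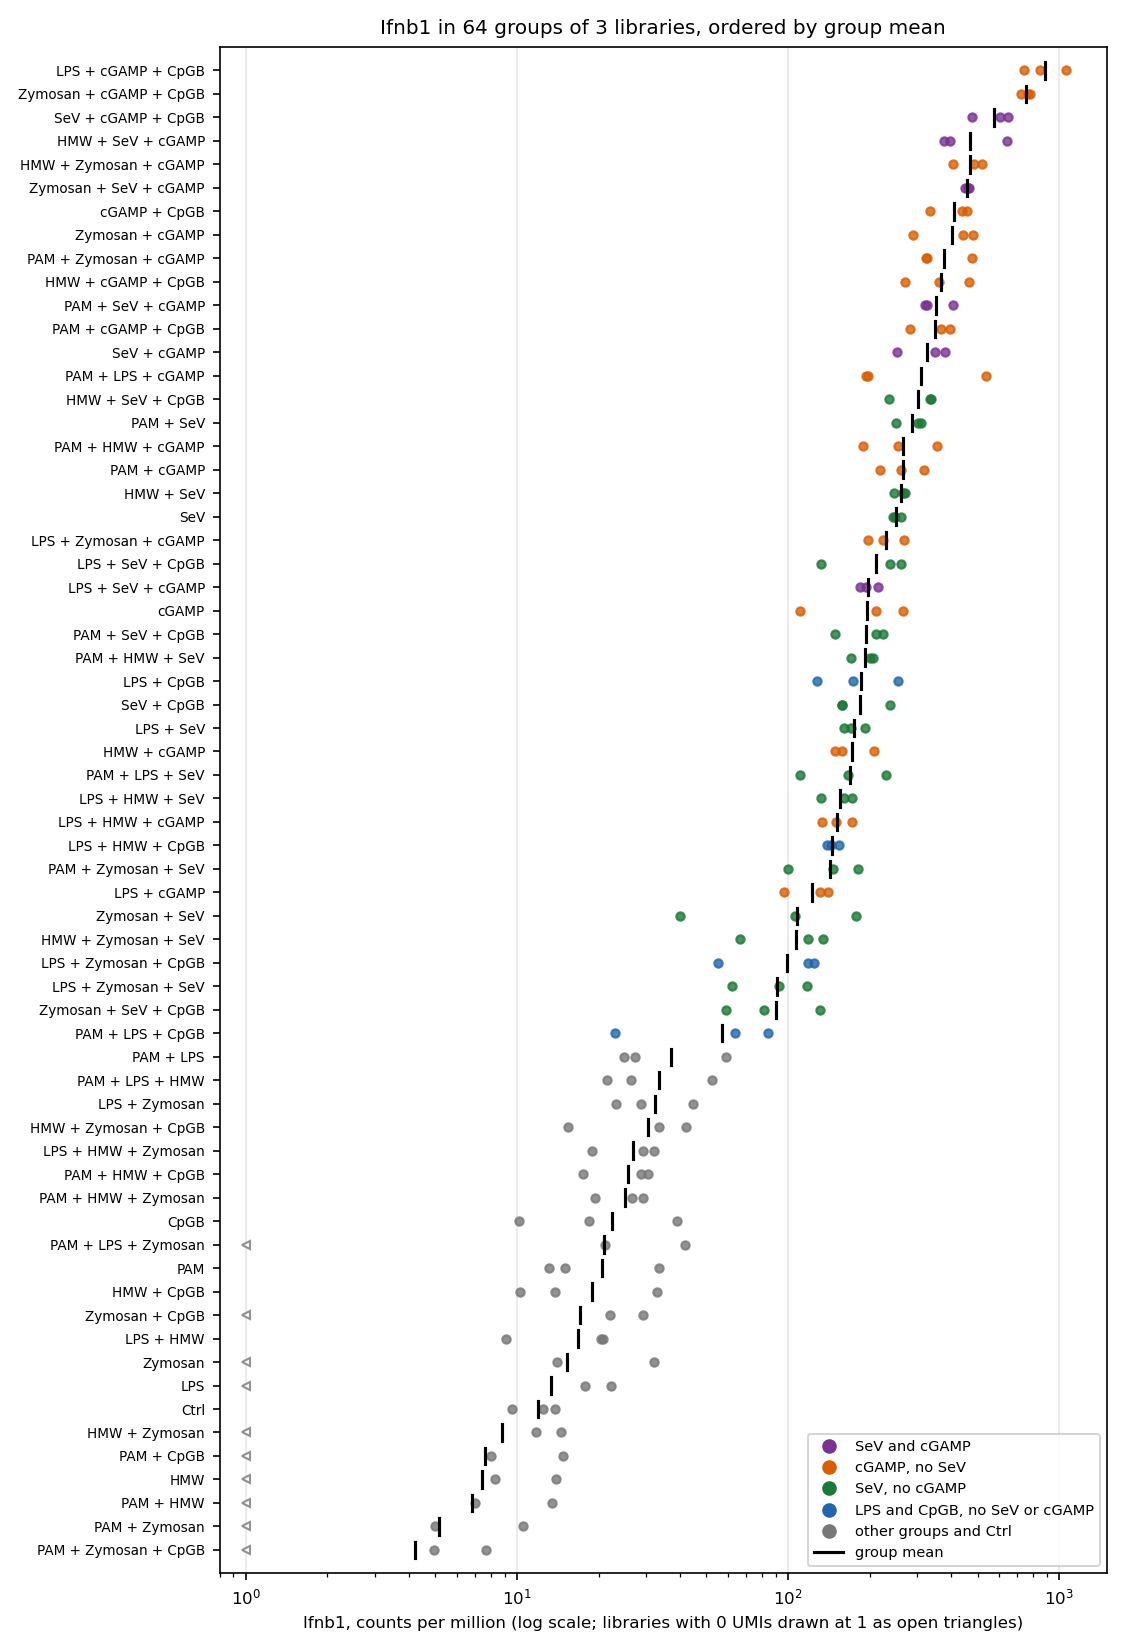
Ifnb1 in CPM (log axis) in each library, with the 64 groups as rows ordered by their mean, points for libraries, black bars for group means and open triangles for libraries with 0 UMIs. The 38 groups with SeV or cGAMP lie between 90.6 and 884 CPM, with 3 of the 4 groups of LPS and CpGB among them, and the groups without any of these lie between 4.20 and 37.0 CPM.

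Over all conditions, Ifnb1 was called higher than Ctrl in 42 of 63 and lower in 0, while on average 14.3% of genes were called higher and 9.03% lower in these conditions. No condition had an unadjusted p under 0.05 for a lower level in edgeR, and DESeq2 called 0 lower as well. The 42 conditions were described by their ligands after the calls were seen. They were the 38 groups that held SeV or cGAMP, all of which were called, and the 4 groups that held LPS together with CpGB without SeV or cGAMP. None of the remaining 21 conditions was called. The 38 groups carried 91.5% of all Ifnb1 UMIs. In each of the 42 conditions every library lay above every Ctrl library, which was also the case in 7 of the 21 others. The weakest call was PAM + LPS + CpGB, with 3, 17 and 11 UMIs (57.1 ± 31.3 CPM) and a log2 fold change of 2.31 ± 1.00 (edgeR adjusted p = 0.0142). It was the only condition no longer called without Ctrl replicate 3, or with replicate 2 or replicate 3 left out of every group, which left 41 each time. With every library thinned in a single random draw to the lowest total, 46564 UMIs, 30 conditions were called. The 12 that were lost were 10 of the 38 groups with SeV or cGAMP and 2 of the 4 with LPS and CpGB (PAM + LPS + CpGB and LPS + Zymosan + CpGB). Another draw could lose other conditions.

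The level within these classes differed. The 16 groups with cGAMP but not SeV had means from 123 CPM (LPS + cGAMP) to 884 CPM (LPS + cGAMP + CpGB) with a median of 328 CPM. The 16 groups with SeV but not cGAMP had means from 90.6 CPM (Zymosan + SeV + CpGB) to 301 CPM (HMW + SeV + CpGB) with a median of 180 CPM. The 6 groups with both ranged from 197 CPM (LPS + SeV + cGAMP) to 575 CPM (SeV + cGAMP + CpGB). The 4 groups with LPS and CpGB alone or with PAM, HMW or Zymosan had means of 57.1 to 186 CPM. The remaining 22 groups, Ctrl included, had means of 4.20 to 37.0 CPM, and none of their libraries held more than 11 UMIs.

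At the top of the order stood LPS + cGAMP + CpGB with 92, 85 and 150 UMIs, or 851, 739 and 1062 CPM (884 ± 164). Its ratio to Ctrl was 76.7, with a counting interval of 26.0 to 374. Zymosan + cGAMP + CpGB followed with 782, 724 and 764 CPM (757 ± 29.6), and its libraries overlapped those of the first group. SeV + cGAMP + CpGB came next with 603, 478 and 645 CPM (575 ± 86.7). HMW + SeV + cGAMP had 639, 394 and 374 CPM (469 ± 148) and HMW + Zymosan + cGAMP 405, 484 and 517 CPM (469 ± 57.5). All of these 5 groups contained cGAMP, and 3 of them contained CpGB with it. The gap between the second and the third group was the only one of the 63 gaps between neighbours that was wider than the SD of both, so that neighbours in the order were otherwise not separated.

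At the bottom stood PAM + Zymosan + CpGB with 1, 0 and 1 UMIs (4.20 ± 3.89 CPM) and PAM + Zymosan with 1, 0 and 1 (5.17 ± 5.27 CPM). PAM + HMW held 1, 3 and 0 UMIs (6.81 ± 6.71 CPM), HMW 1, 0 and 3 as given above, and PAM + CpGB 0, 2 and 1 (7.60 ± 7.41 CPM). None of these 5 groups contained LPS, SeV or cGAMP. The libraries of the first lay below those of Ctrl with at most 1 UMI each, and those of the 4 others overlapped Ctrl. In 4 of the 64 groups, Ctrl among them, the 3 libraries together held at most 3 UMIs.

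Each ligand was added to 22 backgrounds, namely Ctrl, the 6 other ligands alone and their 15 pairs, and the change of Ifnb1 was taken as the log2 level with minus without the ligand. cGAMP raised the mean over its 22 backgrounds by 3.29 ± 0.13 (SE) on the log2 scale (edgeR adjusted p = 1.18e-95), and Ifnb1 had a positive change in 22 of 22. Over the same contrast 57.9% of genes were called in either direction. SeV raised it by 2.60 ± 0.13 (edgeR adjusted p = 9.12e-69), again with 22 of 22 changes positive, and 37.4% of genes were called. CpGB raised it by 0.87 ± 0.14 (edgeR adjusted p = 1.47e-06), with 17 of 22 changes positive and 36.7% of genes called. LPS raised it by 0.79 ± 0.14 (edgeR adjusted p = 2.6e-09), with 14 of 22 positive and 58.9% of genes called. This mean joined backgrounds that differed in sign: LPS had a positive change on all 11 backgrounds without SeV or cGAMP (0.32 to 3.24, median 2.14) but on only 3 of the 11 with them (-0.80 to 1.13, median -0.53), and in 5 of the latter every library with LPS lay below every library without it. No fall with LPS was called by edgeR or DESeq2, and 4 had an unadjusted p under 0.05 in edgeR. Of these, the changes onto Zymosan + cGAMP (-0.80, edgeR adjusted p = 0.0282) and onto SeV + cGAMP (-0.70, edgeR adjusted p = 0.0482) passed the p but not the fold. HMW (0.06 ± 0.14), Zymosan (0.04 ± 0.15) and PAM (-0.00 ± 0.15) had no called mean change, with 10.0%, 41.7% and 39.9% of genes called.

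Single additions were called at an adjusted p under 0.05 and a log2 change of at least 1. Adding cGAMP was called a rise in 18 of 22 backgrounds, where 5.65% of gene and background combinations were called higher. Adding SeV was called in 15 of 22, against 2.93%. At equal thinned totals the called rises were 10 with cGAMP, 5 with SeV, 1 with LPS and 0 with the other 4 ligands. All 16 backgrounds without SeV gave a called rise with cGAMP, of 2.22 to 6.12, whereas the 6 backgrounds with SeV gave changes of 0.20 to 1.92, of which 2 were called (onto Zymosan + SeV and SeV + CpGB). SeV added to the 16 backgrounds without cGAMP gave changes of 0.16 to 5.04, of which 14 were called, and added to the 6 with cGAMP it gave 0.19 to 1.39, of which 1 was called (onto HMW + cGAMP). LPS was called in 6 backgrounds against 6.09% of combinations, CpGB in 5 against 2.65%, Zymosan in 2 against 2.51%, PAM in 1 against 2.68% and HMW in 0 against 0.443%. For HMW, edgeR gave 3 rises at an unadjusted p under 0.05 and DESeq2 called 0. Falls were called in 3 additions over the 7 ligands, against 1.65% of all combinations: PAM onto LPS + CpGB, and Zymosan onto SeV and onto HMW + SeV.

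**Figure D2:**
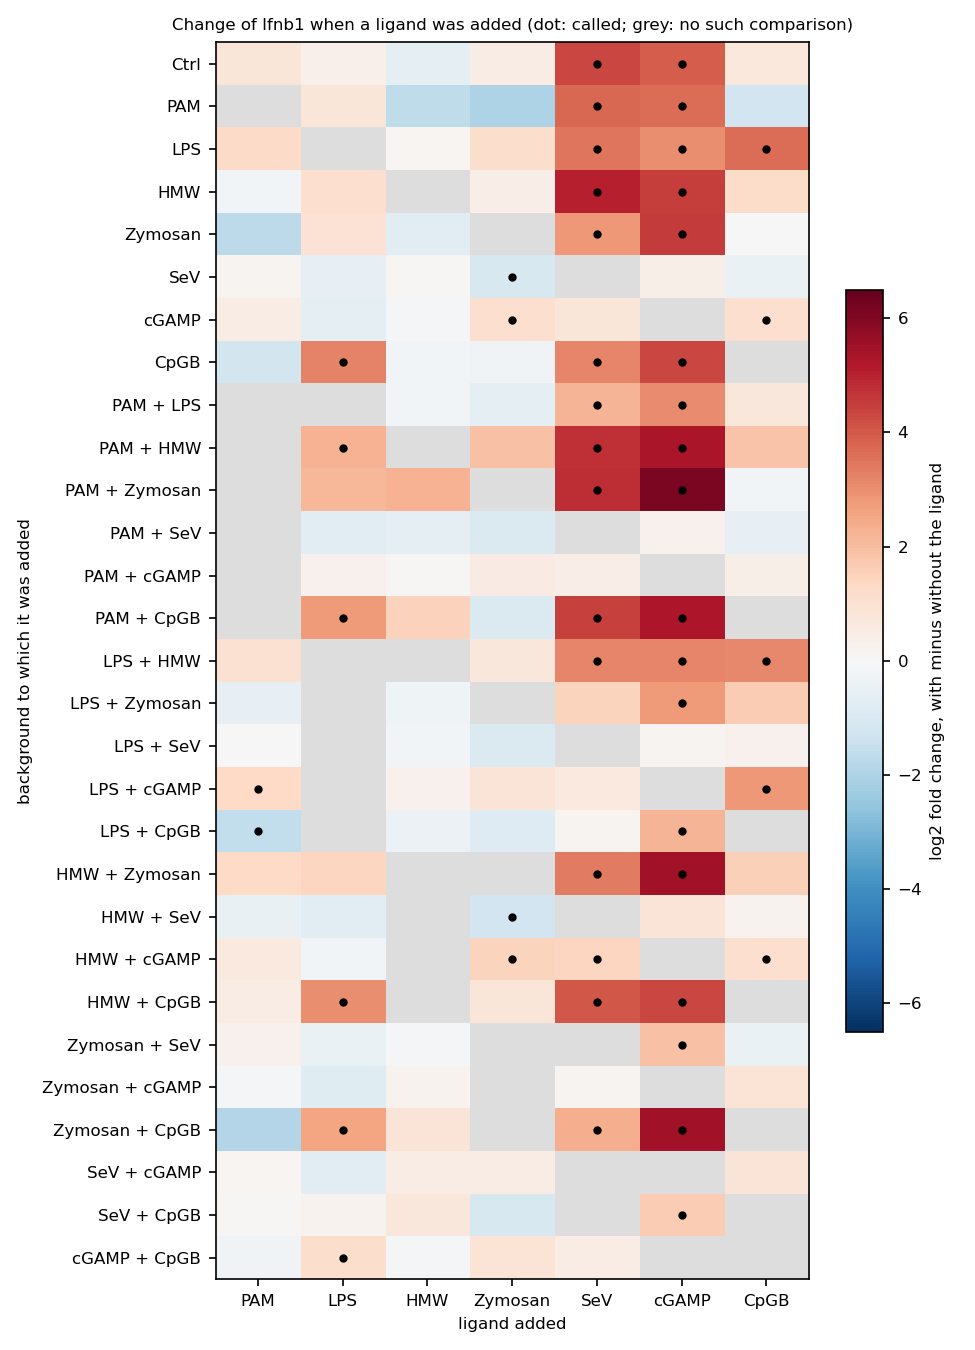
Log2 fold change of Ifnb1 when the ligand in the column was added to the background in the row, in red for higher and blue for lower, with a dot where the change was called. The cGAMP column has dots over all 16 backgrounds that lack SeV and the SeV column over 14 of the 16 that lack cGAMP, with changes of up to 6.12 for cGAMP and 5.04 for SeV.

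Neither LPS nor CpGB alone gave a called change of Ifnb1, whereas the libraries with both held 16, 45 and 37 UMIs, or 128, 255 and 174 CPM (186 ± 64.2). Every library of the pair lay above every library of LPS, CpGB and Ctrl. Adding LPS to CpGB raised Ifnb1 by 3.24 ± 0.56 (edgeR adjusted p = 4.83e-10) and adding CpGB to LPS raised it by 3.61 ± 0.62 (edgeR adjusted p = 1.20e-10). The same step was called when LPS was added to PAM + CpGB (2.79), HMW + CpGB (3.01), Zymosan + CpGB (2.58) and cGAMP + CpGB (1.13). The remaining called rise with LPS, onto PAM + HMW (2.27 ± 0.93, edgeR adjusted p = 0.0294), started from 1, 3 and 0 UMIs. Onto SeV + CpGB the change with LPS was 0.21 ± 0.29 and was not called. Among the 5 called rises with CpGB, 3 were onto backgrounds with LPS (LPS, LPS + HMW and LPS + cGAMP) and 2 onto cGAMP and HMW + cGAMP.

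Adding PAM to LPS + CpGB was called a fall. In PAM + LPS + CpGB the libraries had 22.9, 84.5 and 63.9 CPM, all below the 3 libraries of LPS + CpGB, and the log2 change was -1.62 ± 0.37 (edgeR adjusted p = 0.00761). This call was lost without PAM + LPS + CpGB replicate 1 (-1.35, edgeR adjusted p = 0.264) or replicate 3 (-1.67, 0.0706) and without LPS + CpGB replicate 2 (-1.34, 0.446). It was also lost with replicate 1, 2 or 3 left out of every group (-1.51, -1.75 and -1.74, edgeR adjusted p = 0.0854, 0.224 and 0.110). Onto LPS + cGAMP, PAM had the opposite sign, 1.32 ± 0.29 (edgeR adjusted p = 0.00225). There the 3 libraries with PAM held 197, 193 and 538 CPM against 96.3, 131 and 140 CPM without it. All 3 lay above, 1 of them far above, and with replicate 3 left out of every group PAM had 0 called rises.

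Adding Zymosan lowered Ifnb1 on SeV and raised it on cGAMP. Zymosan + SeV had 178, 39.8 and 106 CPM against 248, 261 and 244 CPM with SeV, a log2 change of -1.05 ± 0.33 (edgeR adjusted p = 0.0222). Zymosan + cGAMP had 482, 288 and 440 CPM against 266, 210 and 110 CPM with cGAMP, a log2 change of 1.08 ± 0.26 (edgeR adjusted p = 0.00136). In all 5 backgrounds with SeV but not cGAMP every library with Zymosan lay below every library without it, with changes of -1.24 to -0.93, of which 2 were called. In all 5 backgrounds with cGAMP but not SeV every library with Zymosan lay above every library without it, with changes of 0.51 to 1.43, of which 2 were called. The difference between both effects, a comparison made after the values were seen, was 1.99 ± 0.19 on the log2 scale when averaged over the 5 backgrounds of each kind (edgeR adjusted p = 7.26e-19), where 1.27% of genes were called. For the single backgrounds alone it was 2.14 ± 0.42 (edgeR adjusted p = 0.000541), where 0.212% of genes were called.

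The shallowest library of the series, Zymosan + SeV replicate 2 with 46564 UMIs, held only 2 Ifnb1 UMIs. Without it the change of Zymosan onto SeV was -0.88 (edgeR adjusted p = 0.105) and no longer called. The call was also lost without Zymosan + SeV replicate 3 (-0.90, edgeR adjusted p = 0.228), SeV replicate 2 (-1.04, 0.0592) or SeV replicate 3 (-1.08, 0.0662). The fall with Zymosan onto HMW + SeV, from 266, 245 and 270 CPM to 66.3, 135 and 119 CPM (-1.24 ± 0.30, edgeR adjusted p = 0.00106), was also called with any single library of those 2 groups left out, but not with replicate 1 left out of every group (-0.98, 0.0517). The difference between the cGAMP and SeV backgrounds was 1.96 without the shallowest library in the average over 5 backgrounds (edgeR adjusted p = 2.52e-18) and 1.95 for the single backgrounds (0.00518). The latter missed the threshold without Zymosan + SeV replicate 3 (1.96, edgeR adjusted p = 0.0763).

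CpGB also differed between both kinds of background. Onto the 5 backgrounds with cGAMP but not SeV its changes were 0.40 to 2.81, of which 3 were called, and in 4 of these backgrounds the libraries did not overlap. Onto the 5 with SeV but not cGAMP they were -0.55 to 0.29, of which 0 were called. The difference was 1.45 ± 0.18 over the 5 backgrounds of each kind (edgeR adjusted p = 5.39e-11), where 0.318% of genes were called. For the single backgrounds it was 1.56 ± 0.39 (edgeR adjusted p = 0.0840), which missed the threshold, and 0.0212% of genes were called. For LPS, PAM and HMW the averaged differences were 0.41 ± 0.18, 0.40 ± 0.17 and 0.09 ± 0.17, and none was called (edgeR adjusted p = 0.296, 0.583 and 0.986), with 2.16%, 0.297% and 0.0212% of genes called.

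**Figure D3:**
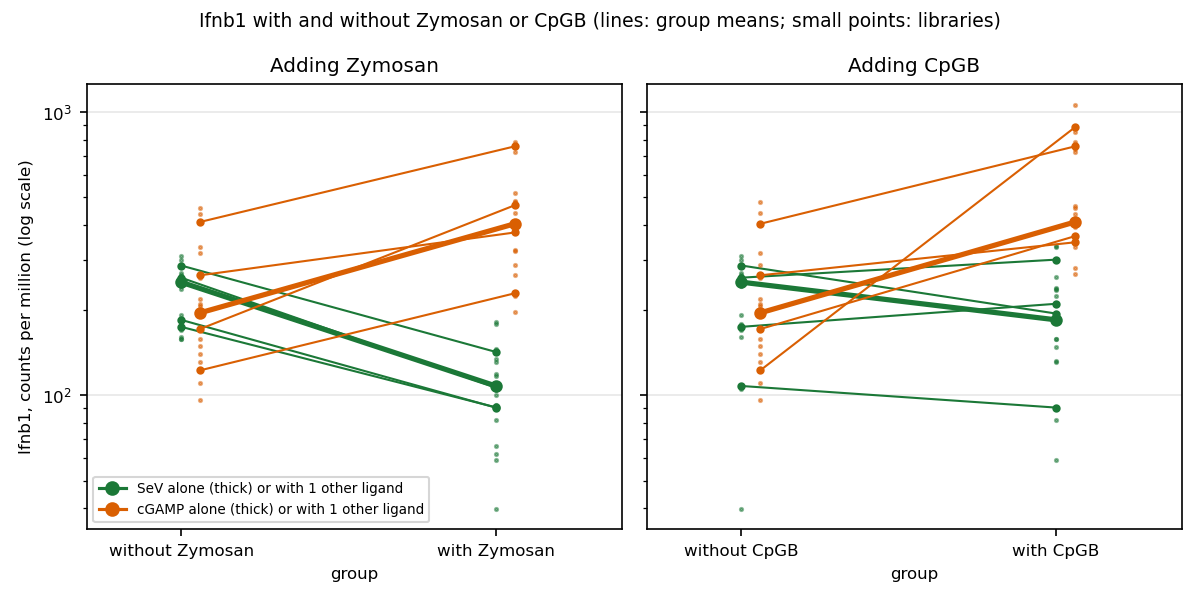
Ifnb1 in CPM (log axis) without and with Zymosan (left) or CpGB (right), for SeV backgrounds in green and cGAMP backgrounds in orange; large points and lines are means of 3 libraries and small points are libraries. All 5 green lines fall and all 5 orange lines climb with Zymosan, from 251 to 108 with SeV alone and from 196 to 403 with cGAMP alone.

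Of the 21 pairs, 3 were called above both of their single ligands: LPS + CpGB, cGAMP + CpGB and Zymosan + cGAMP. This rule asks for a log2 difference of at least 1 over each single ligand and called 0.353% of gene and pair combinations. cGAMP + CpGB had 458, 333 and 436 CPM (409 ± 66.7), 2.09 times the mean with cGAMP and a smaller log2 difference of 1.10 (edgeR adjusted p = 0.00257). Zymosan + cGAMP had 2.06 times the mean with cGAMP (smaller log2 difference 1.08, edgeR adjusted p = 0.00388). In these 3 pairs alone every library lay above every library of the parts. The call of cGAMP + CpGB was lost without cGAMP replicate 3 (0.81, edgeR adjusted p = 0.158). That of Zymosan + cGAMP, and with it the rise with Zymosan on cGAMP, was lost without cGAMP replicate 3 (0.77, edgeR adjusted p = 0.228) and without Zymosan + cGAMP replicate 1 (0.95, 0.0522) or replicate 3 (0.97, 0.0690). With library size alone, and with replicate 3 left out of every group, LPS + CpGB was the only pair still called, and at equal thinned totals 0 pairs were called. No pair was called below both (0.0504% of combinations), with 0 at an unadjusted p under 0.05 in edgeR and 0 called by DESeq2.

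SeV and cGAMP together gave 39, 48 and 67 UMIs, or 349, 252 and 378 CPM (326 ± 66.3), which overlapped the libraries of each ligand alone. The interaction, the change with 1 ligand in the presence of the other less its change from Ctrl (log2), was -3.56 ± 1.01 for this pair (edgeR adjusted p = 5.53e-05). It was the only 1 of 21 pair interactions called for Ifnb1, a share close to the 4.58% over all genes. The value was -3.88 with an edgeR adjusted p of 0.125, and not called, with libraries thinned to equal totals. On the linear scale the pair minus the sum of Ctrl and both single increases was -108 CPM (SE 59.7 from the spread of the libraries), which put the pair at 0.751 of that sum and less than 2 SE from it. Of the 21 pairs 11 lay below this linear sum, among them Zymosan + SeV at 0.424 of it (a difference of -146 CPM, SE 41.4) and LPS + SeV at 0.692 of it (a difference of -77.8 CPM, SE 12.7). The log2 interactions of Zymosan + SeV and LPS + SeV were -1.54 ± 1.17 and -0.86 ± 1.16, neither called (edgeR adjusted p = 0.736 and 0.752). The SEs in CPM rest on the spread of 3 libraries a group alone. For SeV this spread was an SD of 8.63 CPM on 26, 34 and 52 UMIs. Counting error was not added, so that these SEs can be too small. Of the other pairs, LPS + CpGB had the highest interaction, 2.91 ± 1.25, with an unadjusted p of 0.0388 and an edgeR adjusted p of 0.180, and the pair reached 7.78 times its linear sum. cGAMP + CpGB and Zymosan + cGAMP reached 1.99 and 2.03 times their sums with log2 interactions of 0.40 ± 1.12 and 0.60 ± 1.15. Ctrl, with its 3 UMIs, enters every pair interaction.

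Of the 35 triplets, LPS + cGAMP + CpGB was the only 1 called above all 3 of its pairs (0.0115% of gene and triplet combinations). Its mean of 884 CPM compared with 409 CPM for cGAMP + CpGB, 186 CPM for LPS + CpGB and 123 CPM for LPS + cGAMP. The smallest of the 3 log2 differences was 1.13, over cGAMP + CpGB (edgeR adjusted p = 0.000966). The call was lost without LPS + cGAMP + CpGB replicate 3 (0.96, edgeR adjusted p = 0.247) or cGAMP + CpGB replicate 2 (0.99, 0.0644), and at equal thinned totals. Zymosan + cGAMP + CpGB exceeded its pairs in every library as well, but by a log2 difference of 0.89 (edgeR adjusted p = 0.0325), short of the fold asked for. No triplet was called below its pairs (0.0% of combinations), with 0 at an unadjusted p under 0.05 in edgeR and 0 called by DESeq2. No three-way interaction was called for Ifnb1, against 0.933% over all genes, with 1 at an unadjusted p under 0.05 in edgeR and 0 called by DESeq2.

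Among the other interferon genes, Ifnb1 stood alone in abundance. Of 18 further interferon ligand genes in the table, none passed the filter on low counts, and Ctrl held no UMI of any. Ifna4, an interferon alpha made early in virus infection, had 36 UMIs over all libraries, of which 24 lay in groups with SeV and 10 in groups with cGAMP but not SeV. Ifna2 had 21 UMIs (14 and 6) and Ifna5 had 9 (8 and 0). Ifna6, Ifna9, Ifna11, Ifna12 and Ifna13 had 2 UMIs each, Ifna14 had 3, and Ifnab, Ifnz, Ifnl2 and Ifng had 1 each. Ifna1, Ifna7, Ifne, Ifnk and Ifnl3 had none. The interferon alpha genes are near-identical copies, so that reads could be split between them or lost, and they were summed: 80 UMIs fell on 10 of the 12 genes. The sum was 6.17 CPM in the groups with SeV but not cGAMP, 2.18 CPM in those with cGAMP but not SeV, 3.52 CPM in those with both and 0.288 CPM in those with neither. In the same classes Ifnb1 had 1465, 2668, 1069 and 484 UMIs. The alpha genes thus had the higher summed level with SeV and Ifnb1 with cGAMP, values that are side by side here without a test of the difference.

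The other genes of the pathway were taken from a list by role, of which 60 genes were tested, Ifnb1 included. Of the 59 others, 37 were called higher than Ctrl with LPS, 32 each with SeV, cGAMP and CpGB, 16 with PAM, 9 with HMW and 5 with Zymosan. The shares of all tested genes called higher were 14.6% with LPS, 10.5% with SeV, 11.7% with cGAMP and 10.8% with CpGB. With PAM, HMW and Zymosan they were 8.01%, 0.953% and 4.43%. Lower were 3 with LPS, PAM and CpGB each, 2 with SeV, 1 with cGAMP and 0 with HMW and Zymosan. Of all tested genes 9.6% were called lower with LPS, 5.89% with PAM, 6.27% with CpGB, 5.13% with SeV, 5.91% with cGAMP, 0.0212% with HMW and 1.82% with Zymosan. The median log2 fold change of the 60 was 1.72 with LPS, 1.52 with SeV, 1.35 with cGAMP, 1.36 with CpGB, 0.67 with PAM, 0.45 with HMW and 0.41 with Zymosan, while over all tested genes it lay between -0.09 and 0.03. The number called was therefore at least as high with LPS and CpGB, with which Ifnb1 had no called change, as with SeV and cGAMP. LPS also had the highest share of all tested genes called higher.

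Among the receptors, Ifnar1 and Ifnar2, the subunits of the type I interferon receptor, were not called with any ligand, and their log2 fold changes ran from -0.42 to 0.70. Ifngr1, a subunit of the interferon gamma receptor, fell with 5 of the 7 ligands (PAM, LPS, SeV, cGAMP and CpGB). Of 15 sensors and adaptors, 9 rose with SeV and the same number with cGAMP, 11 with LPS, 9 with CpGB, 5 with PAM, and 1 each with HMW and Zymosan. Ddx58 and Ifih1, the RNA sensors RIG-I and MDA5, were called higher with LPS, SeV, cGAMP and CpGB, and Ddx58 with PAM and HMW also.

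Among 13 kinases and factors of induction, Irf7, which amplifies interferon transcription, rose with LPS (log2 fold change 3.58), cGAMP (3.45), SeV (3.43), CpGB (2.86) and HMW (1.30). Irf3, the factor present before stimulation, had 67.6 CPM in Ctrl, 31.7 with SeV and 38.5 with cGAMP, and its changes of -1.14 and -1.01 were not called (edgeR adjusted p = 0.134 and 0.169). Tbk1 reached 216 CPM with cGAMP against 113 in Ctrl, a log2 fold change of 0.89 that passed the p but not the fold (edgeR adjusted p = 0.0154). Of 9 negative regulators 7 rose with LPS, 6 with CpGB, 5 with cGAMP and PAM each, 4 with SeV and 1 with HMW and Zymosan each. Usp18, which shuts off the type I interferon receptor, rose with cGAMP (3.03), LPS (2.99), SeV (2.82) and CpGB (2.51).

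The 13 interferon-response targets, genes that the receptor switches on, were compared with Ifnb1 group by group. All 13 were called higher with LPS, SeV, cGAMP and CpGB, 4 with HMW, 1 with PAM and 0 with Zymosan (edgeR). Ifit1, an inhibitor of viral translation, had 218 CPM in Ctrl, 3818 with LPS, 3760 with SeV and 5445 with cGAMP. Cxcl10, a chemokine for T cells, had 384 CPM in Ctrl, 7305 with LPS, 7097 with SeV and 11101 with cGAMP. LPS alone thus had Ifit1 and Cxcl10 at the level of SeV while Ifnb1 stood at 13.4 CPM against 251 CPM. Averaged over the 13 genes, the 7 groups with LPS but without SeV, cGAMP or CpGB lay 3.70 to 4.07 above Ctrl in log2 CPM, with Ifnb1 at 13.4 to 37.0 CPM. The 38 groups with SeV or cGAMP lay 3.30 to 4.24 above Ctrl with Ifnb1 at 90.6 to 884 CPM. The 7 groups with CpGB but without SeV, cGAMP or LPS lay 1.49 to 2.89 above Ctrl, and the 7 with only PAM, HMW or Zymosan 0.27 to 2.51 above. LPS + cGAMP + CpGB, first of 64 for Ifnb1, was at 3.82 above Ctrl and ranked 30th for the targets.

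**Figure D4:**
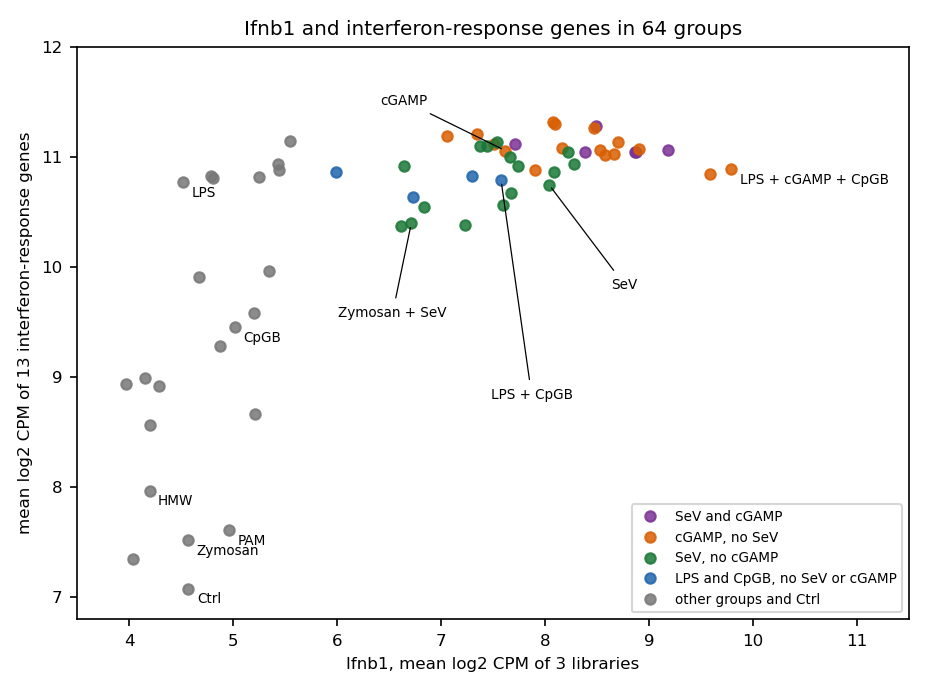
Mean log2 CPM of 13 interferon-response genes against mean log2 CPM of Ifnb1, with 1 point for each of 64 groups, each the mean of 3 libraries. The 38 groups with SeV or cGAMP span 90.6 to 884 CPM of Ifnb1 within a narrow band of the targets, and LPS stands at the left, at 13.4 CPM, with targets in the same band.

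Within the 38 groups with SeV or cGAMP, Pearson's r between Ifnb1 and the mean of the targets was 0.379 and Spearman's rho 0.183. Within the 26 groups with neither they were 0.589 and 0.693. The 26 groups hold the 4 with LPS and CpGB, at 57.1 to 186 CPM of Ifnb1, beside 22 groups at 4.20 to 37.0 CPM. Their correlation therefore also spans separate levels of Ifnb1. These correlations are descriptions over groups that share ligands, and the libraries of the 26 groups held at most 45 Ifnb1 UMIs.

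The 10 genes whose group means followed Ifnb1 most closely were found by Pearson's r of log2 CPM over the 64 groups among 4719 genes, where the median r was -0.09. They were Cited2 (0.858), Rgs1 (0.834), Peli1 (0.799), Ifih1 (0.799), Oasl1 (0.796), Ripk2 (0.794), Cln3 (0.791), Rrbp1 (0.787), Ppp1r15a (0.771) and Cxcl9 (0.770). The list depended in part on the setting: 7 of the 10 stayed among the first 10 with replicate 2 left out of every group. With replicate 1 left out, with library size alone or by Spearman's rho 8 stayed, and in the other settings 9 or 10. Cited2 is a transcriptional co-regulator, Rgs1 a regulator of G protein signalling, Peli1 a ubiquitin ligase of Toll-like receptor signalling, Ripk2 the kinase of the Nod receptors and Ppp1r15a a stress-induced phosphatase subunit. Within the 38 groups with SeV or cGAMP their r was lower, from 0.408 for Cxcl9 to 0.692 for Rgs1, and within the other 26 groups it ran from 0.204 for Ppp1r15a to 0.720 for Cited2. Cited2 had 81.5 CPM in Ctrl, 545 with SeV, 528 with cGAMP, 686 with cGAMP + CpGB and 357 with LPS + cGAMP + CpGB. Ppp1r15a had 37.3 CPM in Ctrl, 60.2 with SeV, 99.2 with cGAMP, 252 with Zymosan + cGAMP, 297 with cGAMP + CpGB and 253 with LPS + cGAMP + CpGB. Neither gene was highest in LPS + cGAMP + CpGB, where Ifnb1 was highest. Promoter windows were matched for 8 of the 10 genes: Cited2, Cln3, Cxcl9, Ifih1, Oasl1, Peli1, Ppp1r15a and Rrbp1. The motif AANNGAAA was found in 4 of these genes (Cln3, in 1 of its 2 windows, Ifih1, Oasl1 and Ppp1r15a) and GGGANNTTC in 1 (Cxcl9). Counted by window and not by gene, the shares over all windows were 23.9% and 3.94%.

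Markers of other cells that could make Ifnb1 were read beside these levels. The 6 genes listed for plasmacytoid dendritic cells, the classical producers of type I interferon, summed to 70.7 to 211 CPM in groups with SeV or cGAMP and to 24.3 to 233 CPM in the others, with 50.6 CPM in Ctrl. The medians were 147 and 98.3 CPM, and Pearson's r of the list with Ifnb1 over groups in log2 was 0.584, the highest among the marker lists. Of the 4311 UMIs of the 6 genes, 4128 were of Tcf4, and the 5 others (Siglech, Ccr9, Pacsin1, Ly6d and Klk1) had 3 to 89 UMIs over all libraries. The list summed to 140 CPM with SeV and 160 CPM with cGAMP, above Ctrl, and Tcf4 held 65 UMIs with SeV, 65 with cGAMP and 11 in Ctrl. Siglech, the defining surface receptor of these cells, had 0 UMIs with SeV, 0 with cGAMP and 2 in Ctrl. Of the rest, Ly6d, Ccr9 and Pacsin1 had 3, 2 and 1 UMIs with cGAMP and 0 with SeV and in Ctrl, and Klk1 had 0 in each. The macrophage list summed to 11860 CPM in Ctrl, 9916 with SeV and 9043 with cGAMP, and ran from 6414 to 10450 CPM in the groups with SeV or cGAMP and from 6598 to 11860 CPM in the others. The neutrophil list summed to 518 to 884 CPM in those groups and 660 to 961 CPM in the others. The part of these cells in the Ifnb1 level was not tested.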

How the data were processed

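UMI counts per gene were deposited by the authors as 1 table of 23481 genes and 64 groups of 3 libraries. Per the submitters' processing notes BWA 0.7.15 and the genome build mm10 were used, and how UMIs were collapsed is not given in the sources used here. Totals were 46564 to 610234 UMIs, so that Ifnb1 in Ctrl rests on 3 UMIs, and intervals cover counting error only. Genes were kept by edgeR's filterByExpr (minimum count 10, minimum total 15), which left 4720 genes with 95.7% of UMIs. edgeR 4.0.16 in R 4.3.3 fitted 1 coefficient per group over all libraries (TMM factors, quasi-likelihood F-test, Benjamini-Hochberg adjustment over all genes tested within each contrast). Calls needed an adjusted p under 0.05 and, for comparisons with Ctrl, single additions, pairs and triplets, a log2 fold change of at least 1, while mean changes, interactions and differences between backgrounds needed the adjusted p alone. CPM are on TMM-scaled totals, and log2 CPM for likeness used a prior count of 2. Alternatives were RLE factors, library size alone, no filter, DESeq2 1.42.0, a replicate block, thinning to equal totals in a single random draw and leaving libraries out. The named genes were those of the pathway list and the 10 with the highest Pearson's r with Ifnb1. The gene and the lists were chosen with earlier results of these data known. No 2 libraries of a group agreed within sampling noise (largest chi-square p = 0.000115).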

Additional observations from a re-analysis of the deposited data

Results flagged for a closer look

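The effect of a ligand on Ifnb1 differed between cGAMP and SeV backgrounds by a direct test of the difference. For Zymosan the change on cGAMP minus the change on SeV was 2.14 on the log2 scale for the single ligands (edgeR adjusted p = 0.000541) and 1.99 as the mean over 5 backgrounds of each kind (edgeR adjusted p = 7.26e-19). For CpGB the mean difference was 1.45 (edgeR adjusted p = 5.39e-11), while for the single ligands it was 1.56 and not called (edgeR adjusted p = 0.0840). These comparisons were chosen after the values were seen, and the cause was not tested.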

How the results depend on the processing

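Ifnb1 was called higher than Ctrl in the same 42 conditions under RLE factors, library size alone, no filter on low counts, DESeq2 and the replicate block. Relative to TMM, RLE moved the median change of all genes by -0.16, DESeq2 by -0.16 and library size alone by -0.36. A replicate block changed no call, and the block gave 42 conditions and 2.00 for the Zymosan difference over 5 backgrounds. Deviations of same-numbered libraries from their group means had a mean correlation of 0.00828. Sampling noise in genes with low counts pulls such a mean down, so that it cannot settle whether the numbers pair the libraries. Totals did climb with the number in some groups, such as Ctrl (61823, 68941 and 89530 UMIs).

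Thinned to equal totals, where 3 of 64 groups held 0 Ifnb1 UMIs, 30 conditions were called, called rises were 0 for PAM, 1 for LPS, 0 for Zymosan, 5 for SeV, 10 for cGAMP and 0 for CpGB, falls with Zymosan 1, and pairs above, triplets above and pair interactions 0. Mean changes were then 0.67 for LPS, 2.04 for SeV, 0.68 for CpGB, -0.10 for HMW and -0.24 for Zymosan, and Zymosan against Ctrl was -0.040. The differences between cGAMP and SeV were -0.36 for PAM, 1.14 for HMW and 1.99 for Zymosan, and 1.11 for CpGB over 5 backgrounds. Pathway calls were 6 with PAM, 26 with LPS, 1 with HMW, 0 with Zymosan, 23 with SeV and 21 with CpGB. With library size alone the mean change with Zymosan was -0.0047, rises with Zymosan 1, pairs above 1 and pathway calls with PAM 12. Without the filter the mean change with PAM was 0.027, the CpGB difference on single backgrounds 1.56 (now called, edgeR adjusted p = 0.0163) and pathway calls with Zymosan 9, against 2 with DESeq2.

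With 1 replicate number left out of every group in turn, or for values against Ctrl also 1 library of either group, values against Ctrl ran from -0.026 to 0.94 for LPS, -1.89 to 0.11 for HMW and -0.30 to 1.02 for Zymosan. Mean changes ran from -0.079 to 0.051 for PAM and -0.11 to 0.14 for Zymosan. Differences between cGAMP and SeV ran from -0.53 to 0.38 for LPS, -0.35 to 0.20 for HMW and 1.58 to 2.63 for Zymosan. Counts ran from 0 to 1 for rises with PAM, 1 to 3 for rises with Zymosan, 1 to 3 for pairs above, 0 to 1 for triplets above, 5 to 9 for pathway calls with HMW and 2 to 5 with Zymosan. Falls with PAM were 0 and falls with Zymosan 1 whichever replicate number was left out of every group. The causes were not tested.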
